A study of Mus musculus with 8 samples.

Results

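The guanylate-binding proteins (GBPs) and the immunity-related GTPases (IRGs) are interferon-inducible GTPases that defend cells against microbes living inside them. The set described here was given by name, as Gbp2, Gbp3, Gbp4, Gbp6, Gbp7, Irgm1, Irgm2, Igtp and Iigp1. The rule that defines it uses no measured value, but it was chosen with earlier results of these data known. Of these 9 genes, 8 had a row among the 15728 genes of the deposited table, and 7 were high enough to be tested. The expression of Igtp was not analysed here, and it enters only through its promoter. Levels come from CAGE (cap analysis of gene expression), a method that captures RNA by its cap and reads the 5′ end, in unexposed lungs of 4 wild type mice and 4 triply n/i/eNOSs-/- mice. The triply n/i/eNOSs-/- mice, called knockout below, lack all 3 nitric oxide synthases (neuronal, inducible, endothelial) in every tissue, so that no cell type is singled out by the model. Both genotypes were 4 weeks old and carry the strain background label C57BL/6J, and the labels give neither sex, litter nor the number of backcrosses. The comparison asks whether these GTPase transcripts change in lungs without any of the 3 enzymes.

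Interferon gamma binds a receptor formed by Ifngr1 and Ifngr2, the kinases Jak1 and Jak2 pass the signal on, and it reaches target genes through gamma-activated sites (GAS) in their promoters. Type I interferon acts through a complex with Irf9 that binds the interferon-stimulated response element (ISRE), a site that Irf1 also uses. GBPs are members of the dynamin superfamily that assemble on pathogen membranes and pathogen-containing vacuoles. IRGs fall into effectors, such as Iigp1 and the Tgtp proteins, that load onto vacuoles and disrupt them, and regulators, Irgm1, Irgm2 and Igtp, that sit on the cell's own membranes and hold the effectors inactive there. Inducible nitric oxide synthase is another product of interferon gamma in mouse macrophages.

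The promoters are shown because all member genes with a RefSeq window held the same short element. Windows from 250 bases before to 50 bases after the transcript start (RefSeq, GRCm38.p6) were found for 6 member genes: Gbp2, Gbp3, Gbp7, Irgm1, Irgm2 and Igtp. They were searched on both strands for the ISRE core GAAANNGAAA, whose reverse complement is TTTCNNTTTC, and for the GAS palindrome TTCNNNGAA. Matches of the core to itself may overlap. Each stretch below reads 5′ to 3′ on the gene's strand and ends before the transcript start, with matches to either motif in capitals. Gbp7 lies at chr3:142530220-142530302, Gbp3 at chr3:142559989-142560024 and Gbp2 at chr3:142620594-142620623, all on the plus strand. Irgm1 lies at chr11:48871425-48871460 and the relative Tgtp2 at chr11:49064263-49064303, both on the minus strand. Igtp lies at chr11:58199501-58199541 and Irgm2 at chr11:58214892-58214932, both on the plus strand.
Gbp7: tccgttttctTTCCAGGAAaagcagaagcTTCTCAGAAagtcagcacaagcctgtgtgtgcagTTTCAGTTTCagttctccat
Gbp3: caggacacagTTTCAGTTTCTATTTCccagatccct
Gbp2: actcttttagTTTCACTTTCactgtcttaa
Irgm1: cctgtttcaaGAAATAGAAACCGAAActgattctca
Igtp: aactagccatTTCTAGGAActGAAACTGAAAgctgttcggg
Irgm2: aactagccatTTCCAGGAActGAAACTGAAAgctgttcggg
Tgtp2: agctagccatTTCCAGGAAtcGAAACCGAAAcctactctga

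An ISRE core was present for 6 of 6 member genes, and a GAS palindrome for 3 of 6 (Gbp7, Irgm2 and Igtp). Of all 32851 windows of that length, 3.44% held the ISRE core, 8.30% the GAS palindrome and 0.454% both. The ISRE core lay from -59 to -50 bases of the Gbp2 start and from -53 to -44 bases of the Gbp7 start. Gbp3 and Irgm1 each held 2 overlapping cores, from -45 to -30 and from -30 to -15. Gbp3 had a further window in the table with neither motif. In Igtp and Irgm2 the palindrome stood just upstream of the core, from -45 to -37 and from -75 to -67, and the relatives Tgtp1, Tgtp2 and Gm12185 had the same order. Of 10 relatives with a window, 7 held the core and 5 the palindrome. These matches are letters in a reference window, and neither binding nor use of the sites was measured here.

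**Figure D1:**
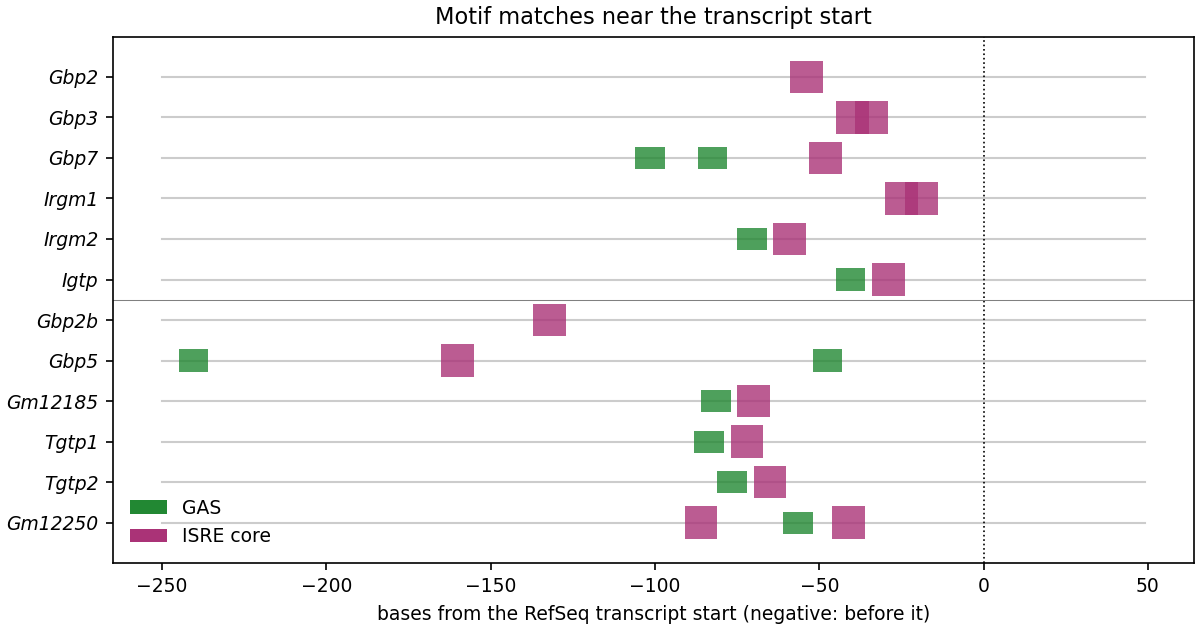
Positions of the GAS palindrome (green) and the ISRE core (purple) in promoter windows of member genes (above the grey line) and relatives (below it) that held a match before the start. The x axis gives bases from the RefSeq transcript start, which is the dotted line. Every core of a member gene lay within the 64 bases before the start.

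The 8 libraries differed in depth. Totals recovered from the steps between deposited values were 15598154 to 18593913 reads in wild type and 13014134 to 15096188 reads in the knockout, so every knockout library was shallower. Values are counts per 1000000 reads (CPM), a scale that does not depend on transcript length because CAGE counts 5′ ends. A gene at 3 reads stood at 0.161 to 0.231 CPM, which is the lowest level read here, and this floor covers counting error only. Nos3, the endothelial synthase, stood at 18.18, 22.75, 19.80 and 18.59 CPM in wild type and at 5.56, 8.32, 8.83 and 6.76 CPM in the knockout, and its CAGE reads could not be placed relative to the deleted part. Epithelial and endothelial marker genes, 16 and 18 of them, were above 0 in all 8 libraries. Pairs of libraries of 1 genotype differed beyond counting noise, and p-values weigh the genotype difference against the spread between libraries.

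Most of the tested GTPases, 5 of 7, were lower in the knockout. That is 71.4%, with 0 higher, called by limma at a Benjamini-Hochberg adjusted p under 0.05, where 14.3% of all 14065 genes tested were called lower and 16.6% higher. Since the set was chosen with earlier results of these data known, these shares are a description and not an independent test. The called members were Gbp3, Iigp1, Gbp2, Irgm1 and Gbp6, with falls between 18.4% and 27.7%. At an unadjusted p under 0.05 there was again 0 higher, since all 7 differences were negative. The median log2 difference, knockout minus wild type on log2(CPM + 0.5), was -0.35 over the 7 members and 0.01 over all genes tested. The same 5 members had genotypes that did not overlap, against 14.3% of all genes tested that did so downwards and 16.8% upwards. Among the GBPs 3 of 5 were called lower, and among the IRGs 2 of 2. Summed over the 8 listed members, the level was 104.32, 104.61, 124.09 and 116.56 CPM in wild type lungs and 80.69, 90.61, 83.99 and 87.82 CPM in the knockout, so the summed levels did not overlap either. On recovered reads, edgeR called 6 members lower and DESeq2 called 5, where those tools called 16.5% and 16.1% of all genes lower. In bulk tissue, fewer cells of a type and less RNA per cell cannot be told apart.

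**Figure D2:**
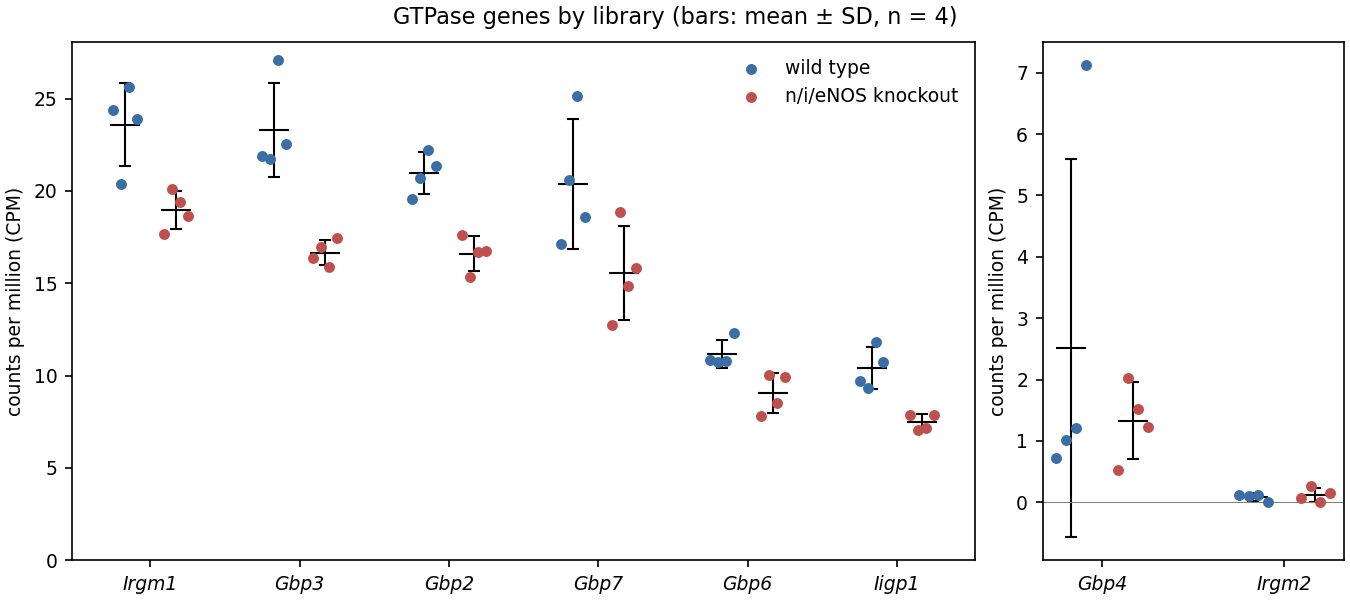
Level of each listed member in CPM (y axis), with 1 point per library, wild type in blue and knockout in red, and black bars for mean ± SD of 4 libraries. The right panel has its own scale for Gbp4 and Irgm2. Knockout points lie below all wild type points for Irgm1, Gbp3, Gbp2, Gbp6 and Iigp1, and overlap them for Gbp7, Gbp4 and Irgm2.

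Gbp3 (ENSMUSG00000028268), a guanylate-binding protein of the cluster on chromosome 3, had the largest difference among the tested members. It stood at 21.89, 21.73, 27.08 and 22.57 CPM in wild type and at 16.36, 16.97, 15.87 and 17.44 CPM in the knockout. Wild type library 3 was high and the knockout libraries lay close together, below every wild type library. The mean went from 23.3 ± 2.53 to 16.7 ± 0.688 CPM (SD, n = 4 each). Gbp3 fell by 0.47 on the log2 scale (SE 0.0865, 95% interval -0.66 to -0.28, limma adjusted p = 0.00250). It was called lower under each of 18 other settings of the processing, with adjusted p from 2.71e-05 to 0.00978. Its promoter, shown above, held 2 overlapping ISRE cores and no GAS palindrome.

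Gbp2 (ENSMUSG00000028270) is a lipid-anchored GBP that gathers on bacteria and on parasite vacuoles in mouse cells. Its wild type levels were 19.56, 20.71, 22.23 and 21.35 CPM, and its knockout levels 17.62, 15.35, 16.70 and 16.75 CPM. All knockout values were below the lowest wild type value, and both groups were tight. The mean went from 20.96 ± 1.12 to 16.6 ± 0.937 CPM. Gbp2 fell by 0.33 (SE 0.0767, 95% interval -0.50 to -0.16, limma adjusted p = 0.00853) and was called under all 18 other settings (adjusted p 0.00289 to 0.0279).

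Gbp7 (ENSMUSG00000040253), whose product is known for supporting assembly of the phagocyte oxidase, varied most between animals among the abundant members. Its wild type libraries gave 17.11, 20.60, 25.17 and 18.59 CPM and its knockout libraries 12.72, 18.87, 14.84 and 15.83 CPM. Knockout library 2 lay above 2 wild type libraries, so the genotypes overlapped. The log2 difference was -0.38 (SE 0.137, 95% interval -0.68 to -0.08), about as large as that of Gbp2 but with a limma adjusted p = 0.0570. It was called lower under 7 of 18 other settings, among them edgeR (0.0333), DESeq2 (0.0176), median-ratio scaling (0.0332) and leaving out wild type library 1 (0.0415) or knockout library 2 (0.0236). Over all 18 the adjusted p ran from 0.0176 to 0.153.

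Gbp6 (ENSMUSG00000079362), from the GBP cluster on chromosome 5, was at the edge of the threshold. Its values were 10.83, 10.76, 10.80 and 12.31 CPM in wild type lungs and 7.82, 10.01, 8.49 and 9.91 CPM in the knockout. Wild type library 4 was high and the other three nearly equal, and knockout libraries 2 and 4 came within 1 CPM of them. Gbp6 fell by 0.29 (SE 0.103, 95% interval -0.52 to -0.07, limma adjusted p = 0.0494). The call was lost under 9 of 18 other settings, with adjusted p over the 18 from 0.0384 to 0.124. Those were no filter on low values, quantile normalization, DESeq2 (0.0546) and leaving out any wild type library or knockout library 1 or 3. In GENCODE M21 the identifier of this row belongs to Gm43302, whose gene model starts 3 bases from that of Gbp6 and shares 199 identical nucleotides at its 5′ end with it. The Gm43302 model also overlaps that of Gbp10 on the same strand, with 123 identical nucleotides at the 5′ ends. The row cannot be assigned to 1 of these genes alone. Summed over the rows listed as Gbp6 and Gbp10, wild type ran from 11.19 to 13.02 CPM and the knockout from 8.15 to 10.37 CPM.

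Gbp4 (ENSMUSG00000079363) was low and rested on 1 library. It stood at 0.72, 1.02, 1.21 and 7.12 CPM in wild type and at 0.53, 2.03, 1.52 and 1.23 CPM in the knockout. Wild type library 4 held 111 of the 163 wild type reads, and the other wild type libraries lay within the knockout range. The log2 difference was -0.35 (SE 0.501, 95% interval -1.45 to 0.75, limma adjusted p = 0.625), and without wild type library 4 it was 0.24 (adjusted p = 0.572, where other settings gave 0.347 to 0.90). The genotypes were not distinguishable for Gbp4 at this depth and spread. In GENCODE M21 the models of Gbp4, Gbp8 and Gbp9 start within 47 bases of each other on the same strand, and Gbp4 and Gbp8 share 98.0% identity over 153 nucleotides of their 5′ ends. Gbp9 was the abundant row of the trio, at 26.85, 48.40, 27.66 and 34.17 CPM in wild type lungs and 21.86, 61.74, 51.90 and 48.95 CPM in the knockout. Summed over the 3 rows, wild type ran from 27.75 to 49.74 CPM and the knockout from 22.92 to 64.11 CPM, so the genotypes overlapped in that sum. The sum does not depend on how the reads were divided among the rows, but it cannot show whether a single gene would differ.

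Irgm1 (ENSMUSG00000046879), the regulator that protects self membranes from effector IRGs and whose loss makes mice prone to mycobacterial infection, was the most abundant member. Its wild type levels were 24.40, 20.38, 25.64 and 23.91 CPM and its knockout levels 17.69, 20.08, 19.39 and 18.67 CPM. Wild type library 2 was the lowest of its group and stood just above knockout library 2, so the genotypes were parted by a narrow margin. Irgm1 fell by 0.30 (SE 0.0862, 95% interval -0.49 to -0.11, limma adjusted p = 0.0206). Over 18 other settings the adjusted p ran from 0.00711 to 0.0626, and it passed 0.05 without wild type library 1 (0.0568) and without wild type library 3 (0.0626).

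Irgm2 (ENSMUSG00000069874), a second regulator, was at or near the floor. Its values were 0.12, 0.11, 0.12 and 0 CPM in wild type lungs and 0.07, 0.27, 0 and 0.15 CPM in the knockout, from 6 and 7 reads in all. No difference is read from these counts. In GENCODE M21 the model of Irgm2 starts 62 bases from that of Igtp, and the genes share 165 identical nucleotides at their 5′ ends. Reads of Irgm2 and Igtp may therefore not have been separable, and a low level in this table is no measure of how much either regulator is made.

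Iigp1 (ENSMUSG00000054072) encodes the best studied effector IRG, which coats and ruptures the vacuole of Toxoplasma gondii. It stood at 9.69, 9.30, 11.84 and 10.71 CPM in wild type and at 7.88, 7.03, 7.18 and 7.84 CPM in the knockout. All knockout libraries lay below all wild type libraries and within 1 CPM of each other. The mean went from 10.4 ± 1.14 to 7.48 ± 0.440 CPM, and Iigp1 fell by 0.44 (SE 0.10, 95% interval -0.66 to -0.22, limma adjusted p = 0.00710). The call was made under all 18 other settings, with adjusted p from 0.00256 to 0.0230. Its 5′ end shares 97.8% identity over 93 nucleotides with that of Gm4951, whose log2 difference was -0.06 (adjusted p = 0.733).

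The order of the levels was the same in both genotypes. In wild type, Irgm1, Gbp3, Gbp2 and Gbp7 had means of 23.6, 23.3, 20.96 and 20.4 CPM with ranges that overlapped from each to the next. Gbp6 and Iigp1 followed at 11.2 and 10.4 CPM, again with overlapping ranges, and the highest Gbp6 library was below the lowest Gbp7 library. Gbp4 and Irgm2 were lower than the rest in every library. In the knockout Irgm1, at 19.0 CPM, no longer overlapped Gbp3 at 16.7 CPM. For scale, the median gene of the table had a wild type mean of 15.7 CPM, and the median tested gene 19.2 CPM.

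The same libraries were often the extremes. Wild type library 3 was the highest of all 8 libraries for 5 of 7 tested members (Gbp2, Gbp3, Gbp7, Irgm1 and Iigp1), and wild type library 4 was the highest for Gbp4 and Gbp6. Knockout library 1 was the lowest for 4 (Gbp4, Gbp6, Gbp7 and Irgm1). Without wild type library 3 the count of members called lower went from 5 to 3, leaving Gbp2, Gbp3 and Iigp1, and the median of the members became -0.31. Over all settings that left out 1 library the count ran from 3 to 6.

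Profiles over the 8 libraries were compared by the root mean square difference of log2(CPM + 0.5) centred on each gene's mean. The tested gene nearest to Gbp3 was Iigp1, with a difference of 0.0653, followed by Acot7 (0.0709) and Dll4 (0.0744). Seen from Iigp1, Gbp3 ranked 5, behind among others Ftsj1 (0.0427), Cops5 (0.0519) and Susd2 (0.0583). Nearest to Gbp2 were Arfgap1 (0.0294), Eef1a1 (0.0391) and Nop2 (0.0392), and nearest to Irgm1 were B9d1 (0.0565), Car8 (0.0656) and Cryab (0.0697). Gbp7 had Hey1 (0.0641), Podn (0.0785) and Tcte1 (0.0796), and Gbp6 had Bax (0.0645), Qpct (0.0701) and Trio (0.0735). Gbp4 had no close neighbour, the nearest being Ccng2 at 0.451, then Mapk3 (0.490) and 7SK (0.532). These distances describe 8 libraries that share the genotype split, so any gene that was lower by a like amount comes near.

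**Figure D3:**
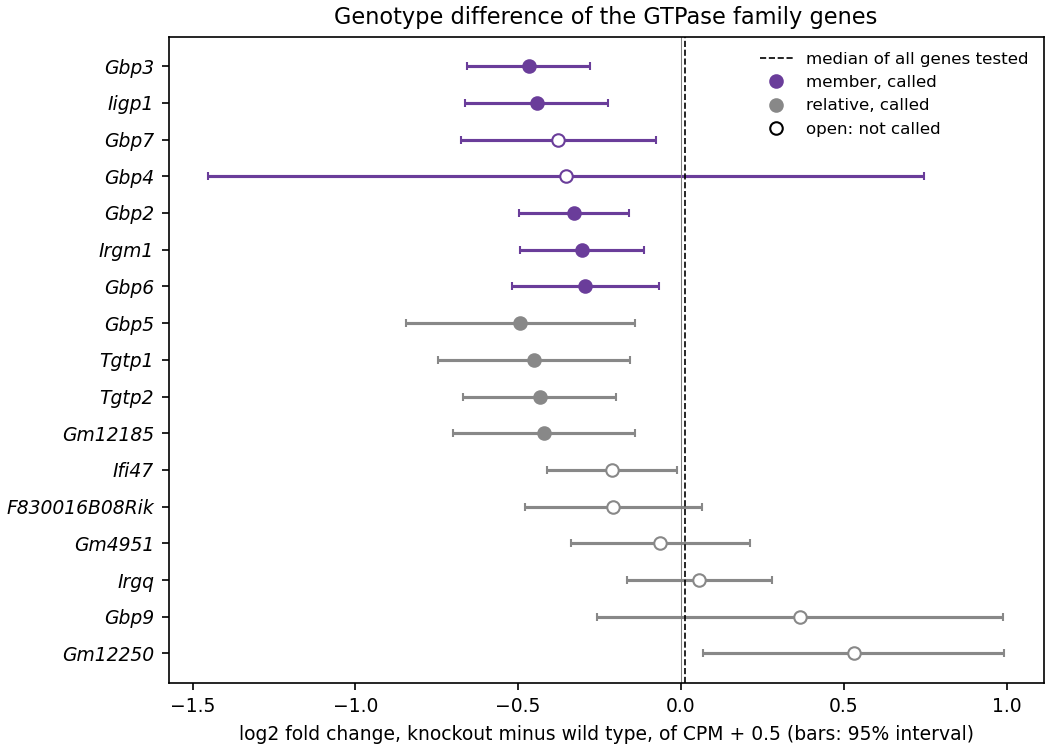
Log2 difference, knockout minus wild type, of log2(CPM + 0.5) with its 95% interval (x axis) for tested members (purple) and relatives (grey), filled where limma called the gene and open where it did not. The dashed line marks the median of all genes tested, 0.01. All 7 members lie to its left, with a long interval for Gbp4, and relatives lie on both sides.

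Relatives outside the named set were lower in part. Of 20 further GBP and IRG genes looked for, 12 were listed and 10 tested. Of these, 4 were called lower (40%) and 0 higher, where 14.3% of all genes tested were lower and 16.6% higher. Their median log2 difference was -0.21. At an unadjusted p under 0.05 there was 1 higher, Gm12250. Tgtp2, an effector IRG, went from 34.45, 39.91, 42.21 and 37.50 CPM to 28.02, 33.61, 29.12 and 23.36 CPM, and knockout library 2 came close to the lowest wild type library without reaching it. It fell by 0.43 (SE 0.107, limma adjusted p = 0.0107) and was called under all 18 other settings. Tgtp1 fell by 0.45 (adjusted p = 0.0257) and Gm12185 by 0.42 (adjusted p = 0.0279), but their gene models overlap in GENCODE M21 and their reads were nearly equal, at 513 and 506 in wild type and 313 and 316 in the knockout, so they are not separate evidence. The 5′ ends of Tgtp1 and Tgtp2 share 98.9% identity over 188 nucleotides, and the 3 rows together ran from 49.29 to 57.92 CPM in wild type and from 31.89 to 44.56 CPM in the knockout. The row listed as Gbp5, whose identifier belongs to Gbp2b in GENCODE M21, fell by 0.49 from a mean of 5.41 to 3.67 CPM (adjusted p = 0.0373).

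The remaining tested relatives were not called. Gm12250, the IRG known as Irgb10, had a log2 difference of 0.53 (SE 0.210, adjusted p = 0.0767) and Gbp9 of 0.37 (SE 0.284, adjusted p = 0.353). Both were called higher without knockout library 1, where the adjusted p was 0.0155 for Gbp9. Gm12250 was also called higher under quantile normalization. Over 18 settings the adjusted p ran from 0.0262 to 0.188 for Gm12250 and from 0.0155 to 0.643 for Gbp9. Ifi47, an IRG, had -0.21 (adjusted p = 0.0983, and 0.0447 without wild type library 2, the lowest of 18 settings) and F830016B08Rik -0.21 (adjusted p = 0.224). Irgq, a distant relative, had 0.06 (adjusted p = 0.704). Gbp8 and Gbp10 were too low to be tested. The count of 4 relatives called lower was 1 without wild type library 3 or without knockout library 4, and 2 without wild type library 1, wild type library 2 or knockout library 1. In those settings the calls of Tgtp1, Gm12185 or Gbp5 were lost.

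Upstream of the GTPases, the receptor chains for interferon gamma did not pass the test and the kinases fell. Ifngr1 averaged 203 ± 12.2 CPM in wild type lungs and 210 ± 18.2 CPM in the knockout, with a log2 difference of 0.04 (95% interval -0.12 to 0.20, limma adjusted p = 0.681), and Ifngr2 had 0.03 (95% interval -0.10 to 0.16, adjusted p = 0.749). Under quantile normalization both were slightly negative. Jak2 fell by 0.39 (adjusted p = 0.0168, and 0.0510 without knockout library 3, the highest of 18 settings) and Jak1 by 0.20 (adjusted p = 0.0213, lost without wild type library 2 or 3, over 18 settings 0.00254 to 0.0642). Ifng itself was not analysed here.

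Of the 18 tested genes of the interferon gamma receptor and signal list, 5 were called lower (27.8%) and 1 higher (5.56%). Of all genes tested, 14.3% were called lower and 16.6% higher. The median log2 difference of the list was -0.07. Besides Jak2 and Jak1, the lower genes included Irf9, a DNA-binding protein of the type I response, which fell by 0.36 (adjusted p = 0.0130), and Nmi, a Stat-interacting protein, which fell by 0.31 (adjusted p = 0.0105). Ptpn11, the phosphatase SHP2, was the gene called higher, by 0.25 (adjusted p = 0.0347). That call was lost under quantile normalization and without wild type library 1, 2 or 3 or knockout library 2 or 4 (over 18 settings 0.0292 to 0.0951). Irf1, which binds the ISRE of GBP genes, averaged 51.9 ± 3.58 and 46.5 ± 2.52 CPM and had a log2 difference of -0.16 (adjusted p = 0.119). It was called lower with other scalings or count tests, median-ratio, TMM and quantile normalization, edgeR and DESeq2, and its adjusted p over 18 settings ran from 0.0355 to 0.265. The feedback inhibitors Socs1 (0.13, adjusted p = 0.585) and Socs3 (0.29, adjusted p = 0.134), with Irf8 (-0.25, adjusted p = 0.135), Irf2 (0.08, adjusted p = 0.514), Stat2 (-0.02, adjusted p = 0.879) and Stat3 (0.19, adjusted p = 0.0653), were not called. Ptpn2 (-0.29, adjusted p = 0.125), Ptpn6 (0.10, adjusted p = 0.495) and Pias1 (-0.12, adjusted p = 0.336) were not called either, and Batf2 was too low to be tested. Leaving out a library gave a call for 4 of these: Irf8 without knockout library 2, Ptpn2 without knockout library 1, Socs3 without knockout library 4 and Stat3 without wild type library 3.

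Other targets of interferon gamma went both ways. Among 25 tested, 5 were called lower and 5 higher (20% each), with a median log2 difference of -0.01. Of all genes tested, 14.3% were called lower and 16.6% higher, so these shares lie near those of genes in general. The lower count was 3 without wild type library 1. Casp4, the caspase that senses bacterial lipopolysaccharide in the cytosol, fell by 0.88 (adjusted p = 0.00156), and Psmb9, a subunit of the immunoproteasome, fell by 0.43 (adjusted p = 0.00168). Cd274, the checkpoint ligand PD-L1, rose by 0.62 (adjusted p = 0.000465) and Serpina3g, a serine protease inhibitor, rose by 1.11 (adjusted p = 0.000603). Named after their values were seen, the other lower genes were Ifi35, Zbp1 and Tap2, and the other higher ones Ciita, Upp1 and Parp14.

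Antiviral genes induced mainly by type I interferon included more lower than higher calls. Of 26 tested, 12 were called lower (46.2%), 3 higher (11.5%) and 11 neither, where 14.3% of all genes tested were lower and 16.6% higher. The median was -0.26, beside -0.35 for the GTPase members. Ifit3 fell by 1.13 (adjusted p = 2.95e-05), Ifit1 by 0.77 (adjusted p = 9.33e-05), Oasl2 by 0.56 (adjusted p = 0.000588) and Isg15 by 0.43 (adjusted p = 0.000793). Of these named genes, Ifit3, Ifit1 and Oasl2 fell further than any GTPase member called lower. Named after their values were seen, the genes called higher were Samd9l, Eif2ak2 and Ddx58. Their count was 1 without wild type library 2 or 4 or knockout library 3, and 2 with median-ratio or TMM scaling, edgeR, DESeq2 or without wild type library 1 or knockout library 4. Summed over the 28 listed, these genes ran from 765 to 806 CPM in wild type and from 653 to 709 CPM in the knockout.

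A further list held genes that conjugate LC3 and GABARAP to membranes, which GBPs and IRGs need to reach vacuoles. It also held autophagy genes outside that conjugation, Becn1 and Nbr1 among them. Of 19 tested genes, 1 was called lower (5.26%) and 2 higher (10.5%), with a median of 0.07. Of all genes tested, 14.3% were called lower and 16.6% higher. The lower count was 4 under quantile normalization, 2 with median-ratio or TMM scaling, edgeR, DESeq2 or without knockout library 1, and 0 without wild type library 2, and the higher count was 1 without wild type library 1. Atg4b, the protease that trims LC3 before conjugation, fell by 0.40 (adjusted p = 0.0172). Becn1, a subunit of the lipid kinase that starts autophagosomes, rose by 0.27 (adjusted p = 0.0126) and Nbr1, an autophagy receptor, rose by 0.22 (adjusted p = 0.0184).

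**Figure D4:**
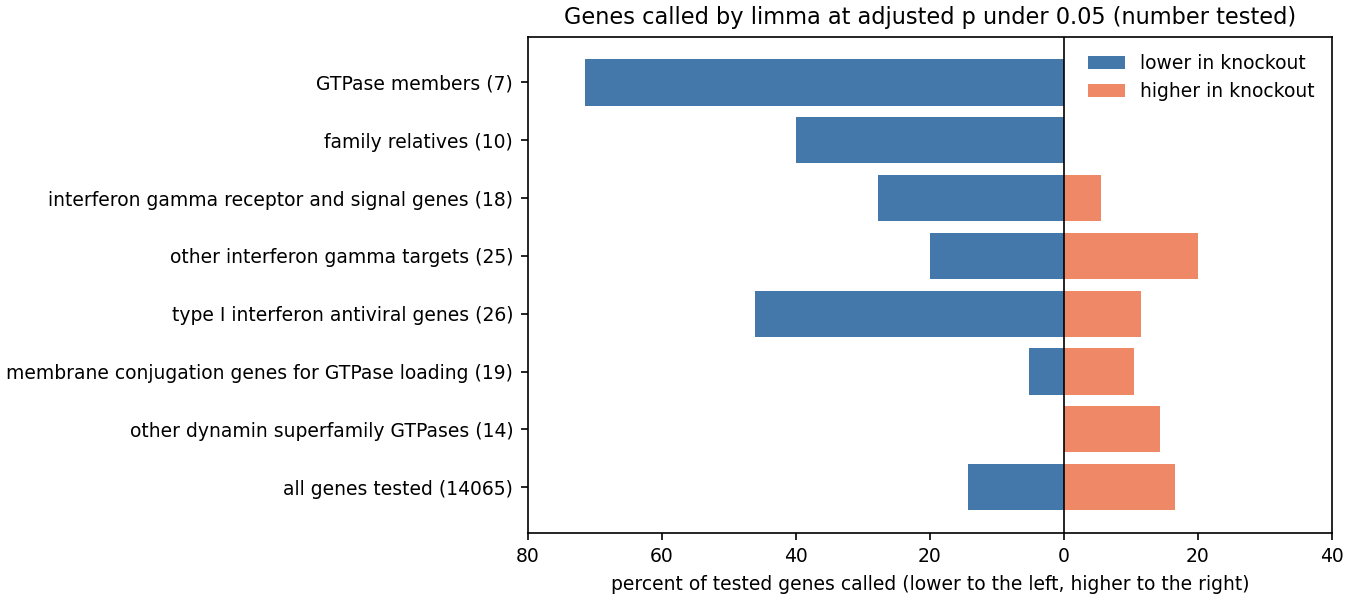
Percent of tested genes that limma called lower (blue, to the left) or higher (orange, to the right) in the knockout, for each gene list with its number tested and for all 14065 genes. Members stand at 71.4% lower and 0% higher, type I interferon genes at 46.2% and 11.5%, and all genes at 14.3% and 16.6%.

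Markers of lymphocytes, among which T and NK cells are the main makers of interferon gamma, were also lower in part of the knockout libraries. Of 17 tested T and NK cell markers, 4 were called lower (Cd3g, Ccl5, Nkg7 and Gzmb), with a median of -0.31. That is 23.5%, where 14.3% of all genes tested were called lower and 16.6% higher. The T and NK sum ran from 119 to 139 CPM in wild type and was 123.01, 107.91, 93.82 and 84.06 CPM in the knockout. Of 9 tested B cell markers, 5 were called lower (55.6%), with a median of -0.83. The B cell sum ran from 161 to 217 CPM in wild type and was 179.59, 100.02, 82.89 and 66.17 CPM in the knockout. The T and NK count was 7 without knockout library 1, and 2 under quantile normalization or without wild type library 1, 2 or 4 or knockout library 3 or 4. The B cell count was 9 without knockout library 1. Knockout library 1 lay within the wild type range for both lymphocyte sums. In that library Gzma gave 40.01 of the 123.01 CPM and Cd79a 87.11 of the 179.59 CPM. These sums therefore do not stand for all markers of their lists. Among 17 tested macrophage and monocyte markers 1 was called lower (5.88%), Lyz2, and 4 higher (23.5%), Marco, Csf1r and C1qc among them. The lower count was 2 without knockout library 1 or with DESeq2. The sum of these markers, most of it Lyz2, ran from 5742 to 6495 CPM in wild type and from 3821 to 4644 CPM in the knockout. Of 18 endothelial markers 6 were called higher (33.3%). That count was 3 without wild type library 1, 2 or 4 or knockout library 2 or 3, and 4 without knockout library 4. Up to 3 endothelial markers were lower under other scalings or DESeq2. Of 16 epithelial markers 4 were called lower (25%) and 3 higher (18.75%). Of 9 neutrophil markers 2 were called lower (22.2%), and 4 without knockout library 1. No marker on any of these lists was at 0 in every library. Without knockout library 1 the members Gbp2, Gbp3, Irgm1 and Iigp1 were called lower, 4 in all. That fit, which keeps only knockout libraries with lymphocyte sums below wild type, is no test of cell composition. The part of cell composition in the GTPase difference was not tested.

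**Figure D5:**
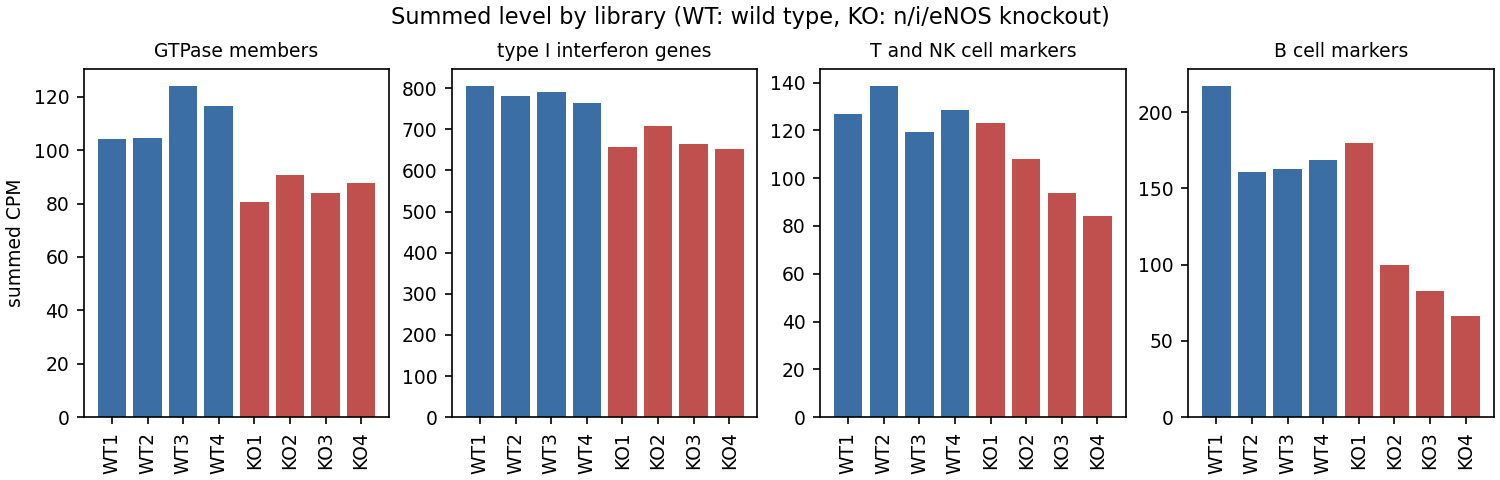
Summed CPM per library (y axes from 0, each panel with its own scale) of the 8 listed members, the type I interferon genes, the T and NK cell markers and the B cell markers, with wild type in blue and knockout in red. The GTPase sums part the genotypes, at 104 to 124 against 80.7 to 90.6 CPM. Knockout library 1 stands in the wild type range for both lymphocyte sums, to which Gzma gave 40.01 and Cd79a 87.11 CPM there.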

How the data were processed

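CAGE libraries of total RNA from 8 lungs were sequenced as single-end reads of 75 nt, per the labels' protocols. The submitters' processing notes list, with no role given, the build mm9 and the tools HISAT2 2.0.5, BWA 0.7.12-r1039 and edgeR. Not given in the sources used here are the assignment of reads to genes, strand use and annotation, so rows of overlapping or near-identical genes are uncertain. The authors deposited CPM with 2 decimals for 15728 genes. All values were whole multiples of the CPM of 1 read (100% within 0.1 reads), which gave reads and totals.

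The 14065 genes that reached 1 CPM in 4 or more of the 8 libraries entered a limma 3.58.1 fit of log2(CPM + 0.5) (variance trend, genotype as the only term, R 4.3.3), two-sided, with Benjamini-Hochberg adjustment over all genes tested. Adjusted p values without a named tool are limma's. The limma step was tested on simulated data. Alternatives were pseudocounts of 0.1 and 1, other filters and scalings, a replicate block, leaving out each library, and edgeR 4.0.16 and DESeq2 1.42.0 on recovered reads.

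The members and lists were chosen with earlier results of these data known. Named were all members, relatives and interferon gamma signal genes, Nos3, the called genes of each other list with the 4 smallest adjusted p, the 3 nearest profiles of each member and the neighbours in reference order. Psmb9 and Ciita had several rows, of which 1 was used. Of the listed identifiers, 15066 are in GENCODE M21 (GRCm38), used for names, order and 5′ ends (the first 200 nt, blastn 2.17.0). Since the reads were placed on mm9, gene coordinates are not given. Promoter entries for Gbp4, Gbp6 and Iigp1 were not used here. Some genes that the naming rule covers are not reported here.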

Additional observations from a re-analysis of the deposited data

Results flagged for a closer look

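Among 39 named genes, 78 groups of 4 libraries were searched for a single value far from the rest, and 6 were found, where chance flags about 1 in 20 groups. Gbp3 was 27.08 CPM in wild type library 3, against 21.73 to 22.57 CPM in the other wild type libraries. Gbp4 was 7.12 CPM in wild type library 4, against 0.72 to 1.21 CPM, and Gbp6 was 12.31 CPM there, against 10.76 to 10.83 CPM. Irgm2 was 0 CPM in wild type library 4, against 0.11 to 0.12 CPM, a gap of 2 reads. Wild type library 4 thus held 3 of these values. Jak2 was 26.68 CPM in wild type library 1, against 29.58 to 30.07 CPM in the rest, and Irf2 was 47.81 CPM in knockout library 2, against 40.57 to 41.41 CPM.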

How the results depend on the processing

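Gbp2, Gbp3 and Iigp1 kept direction and call under all 18 alternatives run. The count of members called lower, 5, was 4 with no filter or quantile normalization, 6 with median-ratio scaling, TMM scaling or edgeR, and 3 to 6 on leaving out 1 library, with the 3 obtained without wild type library 3. No member was called higher in any of them. The relatives called lower, 4, ran from 1 to 4 on leaving out 1 library, and those called higher, 0, from 0 to 2. The signal genes called higher, 1, ran from 0 to 3 over all alternatives.

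Differences that changed sign, none of them called, were Ifngr1 (-0.018), Ifngr2 (-0.0092) and Stat2 (0.011) under quantile normalization, Gbp4 without wild type library 4, Gm4951 without knockout library 1, Socs1 without knockout library 2, and Stat2 without wild type library 3. On leaving out 1 library, Gbp4 ran from -0.64 to 0.24, Gm4951 from -0.12 to 0.031, Stat2 from -0.087 to 0.044 and Socs1 from -0.034 to 0.22. The cause was not tested.

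Replicate numbers did not pair the libraries: same-numbered libraries correlated at 0.043, 0.026, -0.0029 and 0.065 in their deviations from the group means, and only those numbered 4 correlated best with their own number. With the replicate block 6 members were called lower and 0 higher, Gbp7 being the addition (adjusted p = 0.0400), and over all genes 2014 were lower and 2384 higher. The block also called Socs3 and Stat3 higher, 3 signal genes in all, and 8 B cell markers lower.

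Depth was the limit for Irgm2 (6 and 7 reads), Gbp8 and Gbp10, which were not tested.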

Other observations

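Genes that lie beside the GTPase clusters were called about as often as genes in general. Over the 5 nearest listed genes on each side in GENCODE M21 order, 8 of 47 tested were lower (17.02%) and 6 higher (12.8%), where 14.3% and 16.6% of all genes tested were, so the neighbours named here are values only. The GBP cluster on chromosome 3 had 10 tested neighbours, of which Gtf2b (-0.33, limma adjusted p = 0.00321) and Hs2st1 (-0.77, adjusted p = 0.00105) were lower and Lmo4 (0.27, adjusted p = 0.00725) higher. Hs2st1, a heparan sulfate sulfotransferase, fell further than any GBP of the cluster. The GBP cluster on chromosome 5 had 10 tested neighbours, of which 0 were lower and 3 higher: the channel subunit gene Lrrc8c (0.44), the matricellular Sparcl1 (0.33) and the osteopontin gene Spp1 (0.41). Around Gm12250, Igtp and Irgm2 on chromosome 11, Larp1 (-0.67), Mrpl22 (-0.56) and Sap30l (-0.55) were lower and Fam183b (0.83) and Cnot8 (0.28) higher, of 9 tested. Around Irgm1 and the Tgtp genes, also on chromosome 11, Cnot6 (-0.57) and the airway secretoglobin Scgb3a1 (-1.36) were lower, of 9 tested. Around Iigp1, 1 of 9 was lower, the fatty acid transporter Slc27a6 (-0.60).

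Of 14 tested GTPases of the dynamin superfamily outside the GBPs, among them the dynamins, mitofusins, atlastins and EHD proteins, limma called 0 lower and 2 higher (14.3%), where it called 14.3% of all genes lower and 16.6% higher. At an unadjusted p under 0.05, with edgeR and with DESeq2 there was again 0 lower. The difference from the GBPs was not tested. Ehd3, an endosomal recycling protein, rose by 0.74 (adjusted p = 0.00122) and Dnm3, a dynamin, rose by 0.36 (adjusted p = 0.00648). Their lowest log2 difference was -0.14. Mx1 and Mx2, listed both here and with the type I interferon genes, were too low to be tested. With median-ratio or TMM scaling, edgeR, DESeq2 or without knockout library 4 there were 3 higher, and under quantile normalization 1 was lower.

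Of 8 tested inflammasome and cell death genes known to act where GTPases open vacuoles, 2 were called lower and 2 higher. That is 25% each, where 14.3% of all genes tested were called lower and 16.6% higher. The higher count was 0 without wild type library 2 or 4 or knockout library 3, and 1 without any other library except wild type library 1, with edgeR or DESeq2, or where 1 CPM was required in all 8 libraries. The lower count was 1 without wild type library 1 or 2. Casp4 fell by 0.88 and Zbp1, a nucleic acid sensor, by 0.36 (adjusted p = 0.0184). Aim2, the sensor of cytosolic DNA that GBPs help to reach bacterial DNA, rose by 0.61 from 1.39 to 2.30 CPM (adjusted p = 0.0324), with genotypes that overlapped, and Casp8 rose by 0.33 (adjusted p = 0.0216). Casp4 and Zbp1 are also among the interferon gamma targets.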
